A study of Rattus norvegicus with 15 samples.

Results

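AP-1 is a family of transcription factors built from pairs of Fos and Jun proteins, and its transcripts were followed here in dorsal CA1, the part of the rat hippocampus that is needed for contextual fear memory. The 6 genes described are Fos, Fosb and Fosl2 of the Fos group and Jun, Junb and Jund of the Jun group. They were chosen by name, as the rows of those symbols among the 22314 genes of the deposited count table. Fosl1, the other Fos-group gene of the table, is given with the dimer partners.

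As background, Fos proteins do not readily pair with themselves and bind DNA mainly as dimers with a Jun protein, while Jun proteins also pair with each other. Fos, Fosb and Junb are immediate early genes: in neurons their mRNA appears within minutes of calcium entry or growth factor signalling, without new protein synthesis, and is soon degraded through AU-rich elements in its tail. Jun is activated at the protein level by JNK kinases and transcribes its own gene. Jund is made more steadily than its relatives and is often the AP-1 subunit present before a stimulus. In the hippocampus, Fos induction is widely used as a marker of neurons that were active during learning.

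The libraries came from wild-type (WT) male Sprague-Dawley rats of 8 to 9 weeks, whose dorsal CA1 received Accell siRNA, a chemically modified siRNA that enters cells without a transfection reagent. Of the 15 libraries, 5 were labelled Rnf20 siRNA and trained, 5 were labelled scrambled siRNA and trained, and 5 were labelled scrambled siRNA and naive. Training was contextual fear conditioning, in which a rat learns to fear the place where it was shocked, and it took place 5 days after the injection. Rnf20 is the ubiquitin ligase that places monoubiquitin on histone H2B, and the comparisons ask which transcripts differ with training and which differ with the siRNA against Rnf20. Every group had siRNA injected, and a naive group given Rnf20 siRNA was not analysed here. The labels give neither the time between training and dissection, on which immediate early mRNA depends strongly, nor whether each library was a separate animal. The p-values therefore measure only the spread between these libraries.

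The libraries held 12537250 to 20644425 counts assigned to genes. Of the 22314 genes, 14880 passed the filter on low counts and were tested, and all 6 AP-1 genes were among them. Rnf20 itself was not lower under its own siRNA: its mean CPM, the count scaled to library size, was 42.0 ± 2.32 under the Rnf20 siRNA label, 43.2 ± 5.39 in the scrambled trained group and 41.8 ± 2.28 in the naive group (SD, n = 5 each). Between trained groups Rnf20 had a log2 fold change of -0.04 (95% interval -0.22 to 0.13), so the siRNA groups are named below only by their labels. The CA1 pyramidal markers were detected in every group, with summed levels of 482 to 878 CPM under the Rnf20 siRNA label, 269 to 1532 CPM in the scrambled trained group and 471 to 1003 CPM in naive libraries.

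Junb was the AP-1 transcript that separated trained from naive libraries most clearly: all 10 trained libraries had more Junb than any of the 5 naive libraries. Of the 6 genes Fos had the largest fold difference, 1.88-fold in scrambled trained over naive libraries, but its values overlapped. The naive libraries differed widely among themselves in Fos. Fosb and Jun had smaller differences toward trained libraries in that comparison, and the groups covered each other in Fosl2 and Jund. For the Rnf20 siRNA label over naive, Fosb had a log2 fold change of 0.68, Fos 0.67 and Junb 0.50. No AP-1 gene passed an adjusted p of 0.05 in edgeR's quasi-likelihood test in any of the 4 comparisons made. No other gene did either: 0% of the 14880 genes were called in each comparison. At an unadjusted p under 0.05, 2 of the 6 AP-1 genes, Fos and Junb, had higher values in scrambled trained than naive libraries. In the same comparison 9.97% of all genes tested reached that p, 6.62% higher and 3.35% lower. The median log2 fold change of the 6 genes in that comparison was 0.36, against -0.01 over all genes tested, and 5 of the 6 were above 0 where 47.2% of all genes were. The number of AP-1 genes at that unadjusted p was 1 without the 4 libraries farthest out on the first principal component, and it ran from 1 to 4 over all alternatives. These 4 were scrambled trained libraries 10 and 15 and libraries 14 and 18 labelled Rnf20 siRNA. Leaving them out therefore made the trained groups smaller and left the naive group whole.

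**Figure D1:**
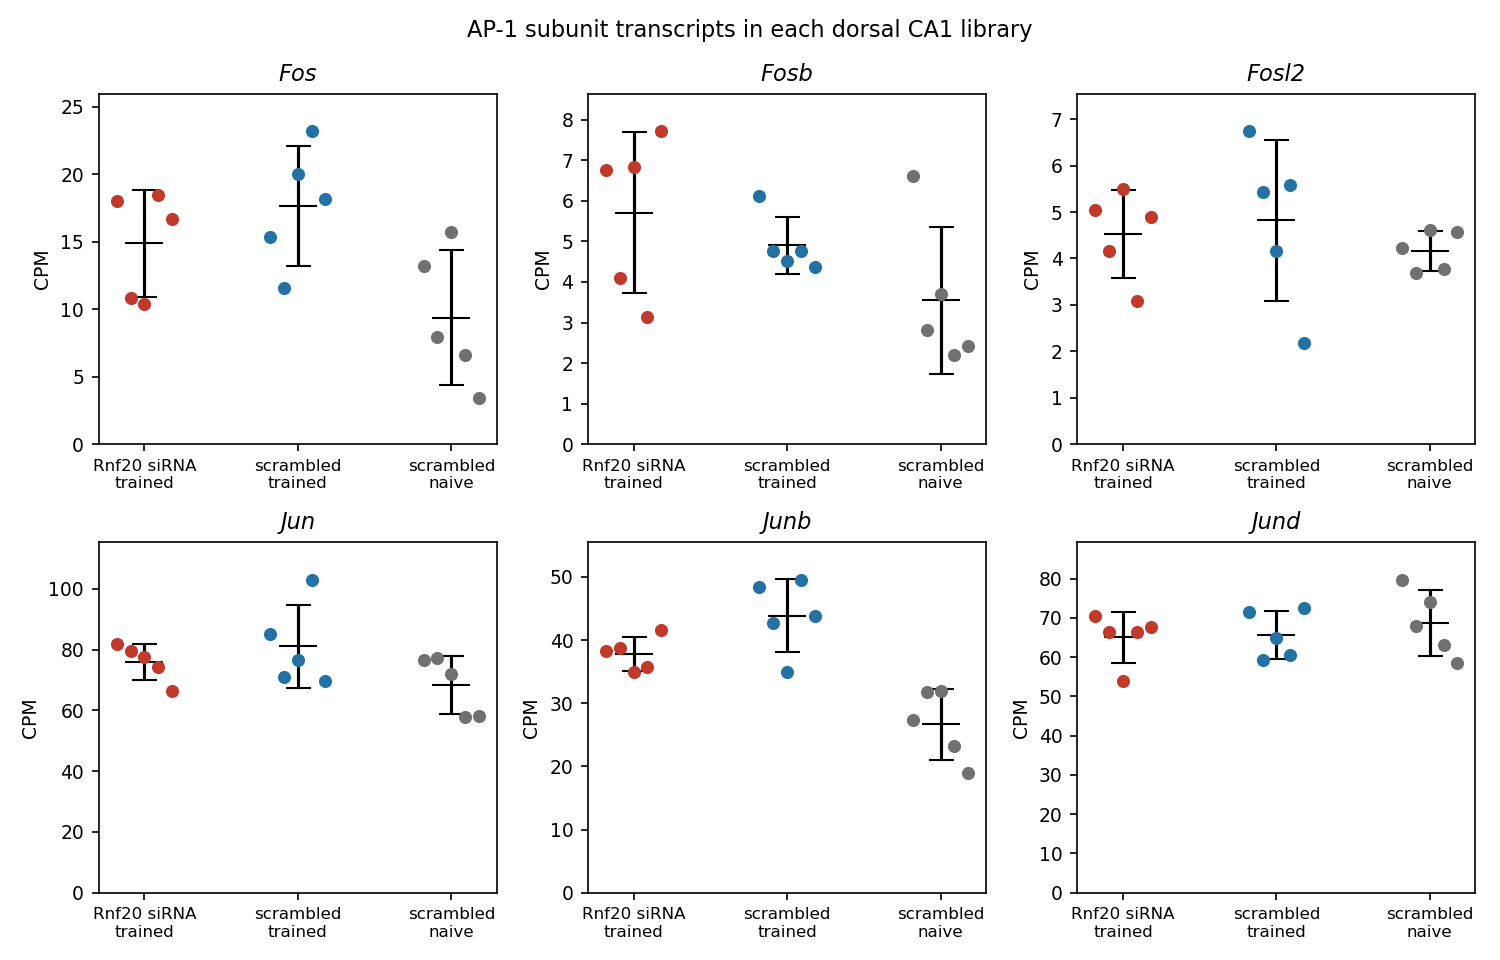
CPM of the 6 AP-1 genes (y axis of each panel, starting at 0) in each of the 15 libraries (points), grouped as Rnf20 siRNA trained, scrambled siRNA trained and scrambled siRNA naive, with the mean and SD of each group in black. In the Junb panel the trained libraries lie between 34.9 and 49.6 CPM and the naive libraries between 19.0 and 32.0 CPM, while the 3 groups overlap in the Jund panel.

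Junb and Jund are the Jun-group genes whose transcripts differed most and least between trained and naive libraries, and the 250 bases before their transcription starts are printed here to set these promoters side by side. The sequences are from RefSeq on build GRCr8, whose table matched 4 of the 6 genes. Each is written 5′ to 3′ on the strand of the gene, Junb at chr19:40080876-40081125 on the plus strand and Jund at chr16:18769772-18770021 on the minus strand. Capitals mark TGACG, the core of the site bound by CREB and ATF factors, on either strand, so that a match on the reverse strand reads CGTCA.
Junb: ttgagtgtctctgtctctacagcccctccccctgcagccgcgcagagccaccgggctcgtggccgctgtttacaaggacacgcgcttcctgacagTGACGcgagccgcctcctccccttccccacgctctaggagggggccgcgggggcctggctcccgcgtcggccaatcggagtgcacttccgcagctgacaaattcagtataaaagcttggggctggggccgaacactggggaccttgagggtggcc
Jund: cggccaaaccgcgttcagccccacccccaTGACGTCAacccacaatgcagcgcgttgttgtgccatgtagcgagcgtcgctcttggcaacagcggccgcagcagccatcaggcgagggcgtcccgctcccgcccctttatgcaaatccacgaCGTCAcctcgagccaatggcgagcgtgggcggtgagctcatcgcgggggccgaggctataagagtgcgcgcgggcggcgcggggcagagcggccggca

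In the Jund window the capitals include the full palindrome TGACGTCA at -221 to -214 from the transcription start, and a further TGACG on the reverse strand at -98 to -94. The Junb window held TGACG at -155 to -151 and no TGACGTCA. Both windows held CCAAT, at -85 to -81 in Junb and at -86 to -82 in Jund. The Junb window also held TATAAA, the letters of a TATA box, at -49 to -44. Only that exact string was counted, so near matches such as tataag in the Jund window were not. On either strand of the 33465 rat promoter windows of 250 bases searched, TGACGTCA occurred in 1.59%, TGACG in 18.2%, CCAAT in 34% and TATAAA in 12.9%. Neither window held TGANTCA, a pattern that includes the AP-1 site and allows any base at its centre. That pattern occurred in 6.34% of windows. Nor did either window hold a CArG box, the site of serum response factor, which occurred in 1.5%. A match is a description of letters, and each TGACGTCA also contains TGACG on both strands.

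Junb encodes a Jun protein that is itself an immediate early gene product and that activates fewer promoters than Jun. It had 38.2, 38.7, 34.9, 35.7 and 41.6 CPM in the trained libraries with the Rnf20 siRNA label. It had 48.4, 42.6, 35.0, 49.6 and 43.8 CPM in scrambled trained libraries. It had 27.4, 31.8, 32.0, 23.2 and 19.0 CPM in naive libraries. The lowest trained library thus exceeded the highest naive library, and the 2 trained groups overlapped each other. In bulk tissue, more cells with Junb and more Junb per cell cannot be told apart. In scrambled trained over naive libraries Junb was 1.64-fold (95% interval 1.35 to 1.99), a log2 fold change of 0.72 ± 0.13 (SE), with an unadjusted p of 6.11e-05 and an adjusted p of 0.379 by edgeR. Only Tubb2b had a smaller p among the 14880 genes in this fit, a rank that depended on the setting. An exact permutation test over the libraries, two-sided, gave p = 0.00794, the smallest that 252 arrangements of 5 against 5 allow. Groups that did not overlap, with the trained one higher, were found for 1.1% of genes.

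The tool decided whether Junb passed the threshold. DESeq2's Wald test gave almost the same log2 fold change, 0.71, with an adjusted p of 0.00161, and called 58 genes in all. Limma-voom called 0 genes. Over all alternatives the adjusted p of Junb in this comparison ran from 0.00161 to 0.819, and the log2 fold change from 0.62 to 0.79. With the 3 trained libraries lowest in choroid plexus markers left out, the log2 fold change was 0.67 (edgeR unadjusted p = 0.0012). Junb then had rank 112 by p, against rank 2 in the main fit. With the choroid plexus score as a covariate it had rank 122, and 107 genes were called without Junb among them. With only the compared groups fitted it had rank 24.

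The trained libraries labelled Rnf20 siRNA were 1.42-fold naive libraries in Junb (95% interval 1.17 to 1.72), a log2 fold change of 0.50 ± 0.13 (SE) with an unadjusted edgeR p of 0.00163 and an adjusted p of 1.00. Per1, a clock gene, and Slc22a8, an organic anion transporter, were the only genes with a smaller p in this fit. Junb had rank 51 by p without the 3 libraries lowest in choroid plexus score. With that score as a covariate its rank was 36. Non-overlapping groups with the trained one higher made up 0.249% of genes in this comparison. With both trained groups set against the same naive libraries, Junb had a log2 fold change of 0.61 ± 0.12 (SE) and an adjusted edgeR p of 0.551. The exact permutation test gave p = 0.000333 there, the smallest that 3003 arrangements allow. DESeq2 again called Junb in this comparison, with an adjusted p of 0.0029, among 9 genes. These 3 comparisons share the naive libraries, so their values are not independent of each other.

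Only 7 genes, 0.047% of those tested, were higher in all 10 trained libraries than in all 5 naive ones, and another 7 were lower throughout. Beside Junb the higher genes were Ddit4, Dtx2, Wwtr1, Nup62, Dnmbp and Dtwd1, which are named because the count is small. Ddit4, an inhibitor of mTOR signalling that glucocorticoids and other stresses induce, ran from 67.1 to 99.6 CPM in trained and from 55.6 to 64.7 CPM in naive libraries. Wwtr1 encodes TAZ, the Hippo pathway coactivator, and its groups nearly touched, at 8.50 to 13.6 CPM in trained and 6.30 to 8.49 CPM in naive libraries. Of the 7 genes higher in trained libraries, Junb had the smallest p.

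Jun encodes the founding Jun protein, the main target of JNK phosphorylation. It had 81.9, 79.4, 77.6, 74.4 and 66.5 CPM in the trained libraries with the Rnf20 siRNA label. It had 85.1, 71.0, 76.6, 103 and 69.5 CPM in scrambled trained libraries. It had 76.5, 77.1, 72.1, 57.9 and 58.1 CPM in naive libraries. Naive libraries 11 and 12 lay below every trained library, while the other 3 naive libraries lay inside the trained range. The log2 fold change in scrambled trained over naive libraries was 0.25 ± 0.12 (SE, edgeR unadjusted p = 0.0503), and the group labelled Rnf20 siRNA had 0.15 ± 0.12 over naive. Scrambled trained library 15, the deepest of the study, had the highest value at 103 CPM, and without it the scrambled trained difference in Jun was 0.15 (edgeR unadjusted p = 0.152).

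Jund encodes the steadily expressed Jun protein. It had 70.6, 66.4, 53.9, 66.5 and 67.6 CPM in the trained libraries with the Rnf20 siRNA label. It had 71.4, 59.2, 65.0, 60.5 and 72.6 CPM in scrambled trained libraries. It had 79.7, 67.9, 73.9, 63.1 and 58.5 CPM in naive libraries. The 3 groups covered each other, and the naive group reached both higher and nearly as low as the trained ones. Jund had a log2 fold change of -0.06 in scrambled trained over naive libraries (95% interval -0.27 to 0.14, edgeR unadjusted p = 0.525), so a fold above 1.10 or below 0.831 lay outside the interval.

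**Figure D2:**
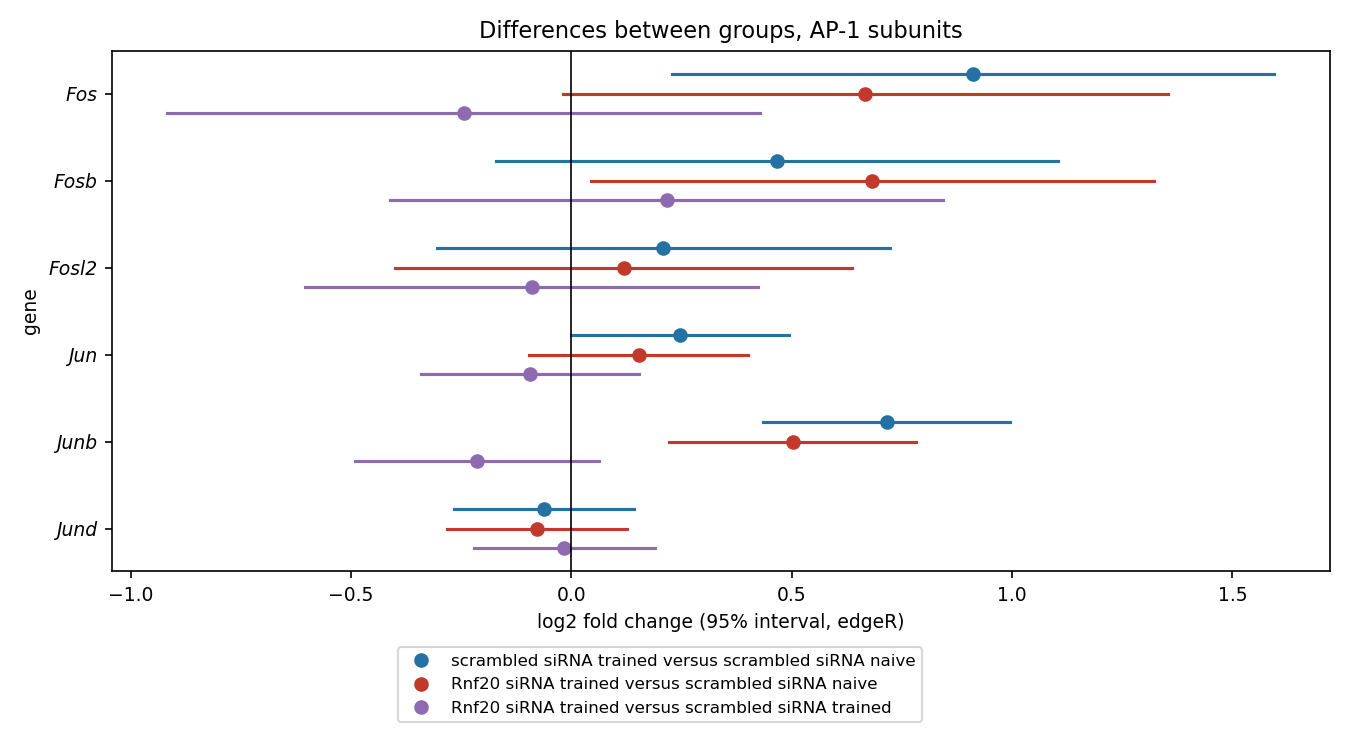
Log2 fold change (x axis) with its 95% interval from edgeR for each AP-1 gene (rows) in 3 comparisons: scrambled siRNA trained over naive, Rnf20 siRNA trained over naive, and Rnf20 siRNA trained over scrambled siRNA trained. The Junb interval lies above 0 in both comparisons with naive libraries (0.44 to 1.00 and 0.22 to 0.78), the Jund intervals are narrow around 0, and every interval between the trained groups includes 0.

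Fos encodes the Fos protein, the classical activity-induced partner of Jun. It had 18.0, 10.8, 10.4, 18.5 and 16.7 CPM in the trained libraries with the Rnf20 siRNA label. It had 15.3, 11.6, 20.0, 23.2 and 18.2 CPM in scrambled trained libraries. It had 13.2, 7.96, 15.7, 6.59 and 3.42 CPM in naive libraries. Naive libraries 2, 11 and 12 lay below every trained library, while naive libraries 1 and 9 lay inside the trained range. The highest library had 1.78 times the Fos of the lowest under the Rnf20 siRNA label, 2.01 times in the scrambled trained group and 4.59 times in the naive group.

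Scrambled trained libraries had 1.88 times the Fos of naive libraries (95% interval 1.17 to 3.02), a log2 fold change of 0.91 ± 0.32 (SE) with an unadjusted edgeR p of 0.0123 and an adjusted p of 0.408. The exact permutation test over these 10 libraries gave p = 0.0397. For trained libraries labelled Rnf20 siRNA over naive the log2 fold change was 0.67 ± 0.32 (SE), with an unadjusted edgeR p of 0.0559. Without the 4 libraries farthest out on the first principal component, all of them trained, the scrambled trained group exceeded naive by 0.69 on the log2 scale. The unadjusted edgeR p was 0.0973 with these fewer trained libraries. Without naive library 12 the value was 0.72.

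Fosb encodes FosB and its truncated form ΔFosB, a long-lived protein that builds up after repeated activity, and gene counts do not separate the transcripts of these forms. Its counts were low, between 34 and 122 per library. It had 6.76, 4.10, 6.83, 3.14 and 7.72 CPM in the trained libraries with the Rnf20 siRNA label. It had 6.13, 4.77, 4.52, 4.75 and 4.37 CPM in scrambled trained libraries. It had 6.62, 2.81, 3.70, 2.20 and 2.42 CPM in naive libraries. Apart from naive library 1, all naive values lay below the scrambled trained ones, and the values under the Rnf20 siRNA label ran across those of both other groups. The log2 fold change over naive libraries was 0.68 ± 0.30 for the Rnf20 siRNA label (SE, edgeR unadjusted p = 0.0376), and 0.47 ± 0.30 for scrambled trained libraries (SE, edgeR unadjusted p = 0.139). Without naive library 1 the scrambled trained difference was 0.81 (edgeR unadjusted p = 0.00689), and that for the Rnf20 siRNA label was 1.03. Over all alternatives the unadjusted p of Fosb for the Rnf20 siRNA label over naive libraries reached 0.121, so its place under 0.05 depended on the setting.

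Fosl2 encodes Fra-2, a Fos protein that lacks the strong activation domain of Fos. Fosl2 ran from 3.07 to 5.50 CPM in trained libraries labelled Rnf20 siRNA, from 2.19 to 6.74 CPM in scrambled trained libraries and from 3.69 to 4.61 CPM in naive libraries. The naive values fell inside both trained ranges. The log2 fold change of Fosl2 was 0.21 in scrambled trained over naive libraries (edgeR unadjusted p = 0.401) and 0.12 for the Rnf20 siRNA label over naive. The first of these was 0.06 without scrambled trained library 5 and 0.39 without scrambled trained library 16. Across the 3 comparisons with naive libraries, the AP-1 genes at an unadjusted p under 0.05 were Fos and Junb for scrambled trained, Fosb and Junb for the Rnf20 siRNA label, and all 3 of these for both trained groups together. For the Rnf20 siRNA label over naive, 2.3% of all genes reached that p, made up of 1.21% higher and 1.09% lower. For both trained groups over naive it was 5.42%, made up of 3.21% higher and 2.21% lower. Above 0 in the same comparisons were 5 of the 6 AP-1 genes, against 50.6% and 48.6% of all genes.

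The comparison of the trained groups asks whether AP-1 transcripts after training differed with the siRNA label. It shares the scrambled trained libraries with the comparison against naive, so the values of the 2 comparisons are not independent. At an unadjusted p under 0.05, 0 of the 6 genes were called, where 5.61% of all genes were, 2.63% higher and 2.98% lower. Junb averaged 37.8 ± 2.68 CPM in trained libraries labelled Rnf20 siRNA and 43.9 ± 5.77 CPM in scrambled trained libraries (SD, n = 5 each), a ratio of 0.862 with a 95% interval of 0.712 to 1.05 (edgeR unadjusted p = 0.122). The exact permutation test for Junb gave p = 0.0714. Without scrambled trained library 10 the log2 fold change of Junb was -0.28, with an unadjusted edgeR p of 0.0429 and an adjusted p of 0.861, and with log2 total count as a covariate it was -0.08 (edgeR unadjusted p = 0.588). Fos averaged 14.9 ± 3.95 CPM in libraries labelled Rnf20 siRNA and 17.7 ± 4.45 CPM in scrambled trained libraries, a ratio of 0.844 whose interval of 0.530 to 1.35 is wide. Fosb had a ratio of 1.16 (95% interval 0.752 to 1.80) and Fosl2 one of 0.939 (0.658 to 1.34). Jun, at 0.937 (0.789 to 1.11), and Jund, at 0.989 (0.859 to 1.14), had the narrowest intervals together with Junb. These intervals leave room for differences of that size in either direction, and the p-values do not show that the groups were alike. The 6 genes had a median log2 fold change of -0.09, against 0.00 over all genes tested, and 1 of them, Fosb, was above 0 where 50.7% of all genes were.

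Counts of each subunit were next set against Jund counts of the same library, which removes library size from the measure. The ratio of Junb to Jund averaged 0.585 ± 0.0477 in trained libraries labelled Rnf20 siRNA, 0.672 ± 0.108 in scrambled trained libraries and 0.388 ± 0.0608 in naive libraries (SD, n = 5 each). It ran from 0.537 to 0.648 under the Rnf20 siRNA label, from 0.538 to 0.819 in scrambled trained libraries and from 0.325 to 0.469 in naive libraries. Trained and naive libraries lay apart, but the ratio rests on the same Junb counts as above and also depends on Jund. The 0.648 was library 14, which had the lowest Jund of its group, 53.9 CPM. The ratio of Fos to Jund averaged 0.227 ± 0.0475, 0.271 ± 0.0764 and 0.132 ± 0.0591 in the same order of groups, with overlap. The ratio of Jun to Jund averaged 1.18 under the Rnf20 siRNA label, 1.25 in scrambled trained and 0.996 in naive libraries. These are ratios of counts without correction for transcript length, so they compare libraries and not the abundance of one gene with another.

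**Figure D3:**
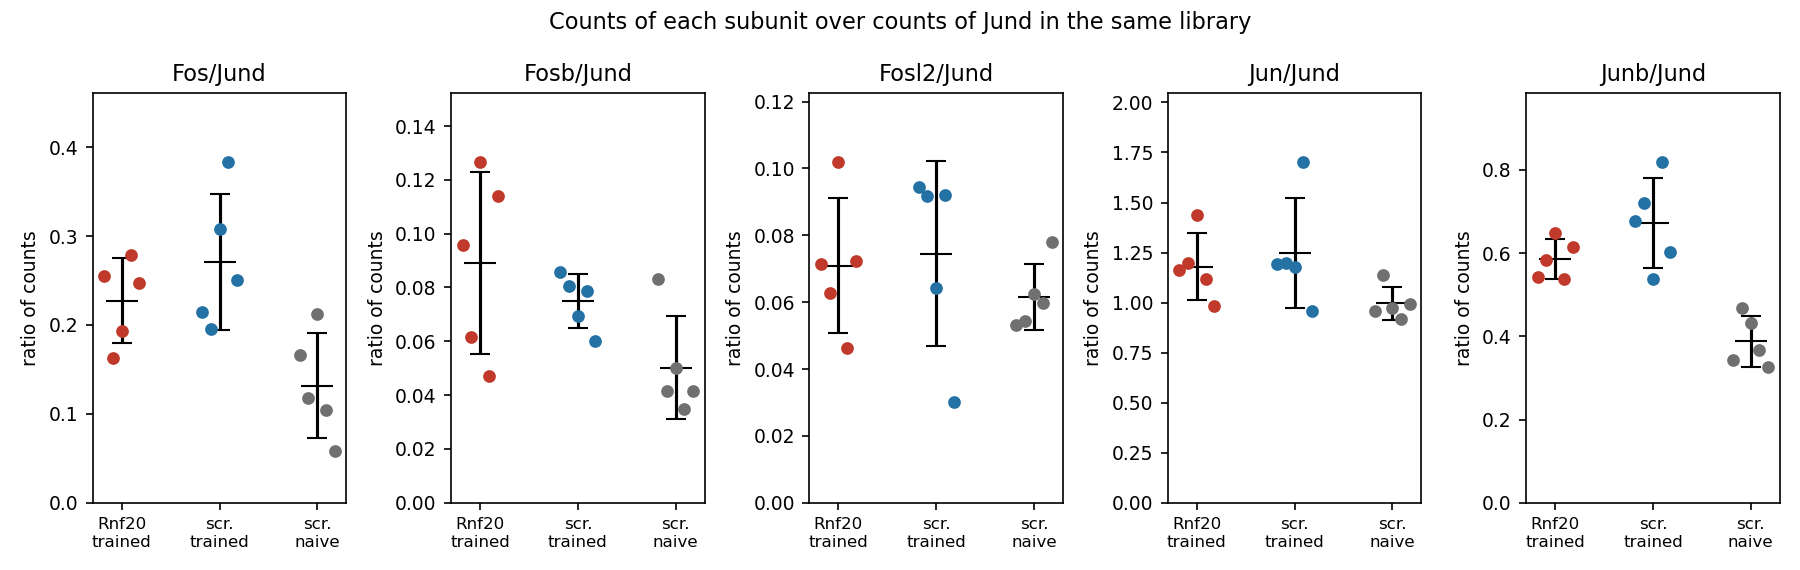
Counts of Fos, Fosb, Fosl2, Jun and Junb divided by the counts of Jund in the same library (y axes, ratio of counts, starting at 0), 1 point per library in the 3 groups, with the group mean and SD in black. The Junb ratio lies at 0.537 or above in all trained libraries and at 0.469 or below in all naive libraries, and the other 4 ratios overlap between trained and naive libraries.

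The genes also differed in how much they varied between libraries of the same group. The biological coefficient of variation that edgeR estimated for Fos was 0.351, against a median of 0.145 among the 500 genes closest to it in abundance, and 95.4% of those genes varied less. Fosb had 0.320 against 0.223 among its neighbours in abundance, and Junb had 0.150 against 0.117. Jund had 0.115 against 0.114, in the middle of its neighbours. The greater spread of Fos is visible in its naive group, whose coefficient of variation was 53.3%. A given difference therefore needed to be larger in Fos than in Junb to stand out from the spread.

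Across the 15 libraries, log2 CPM of Fos and Junb had a Pearson r of 0.79 and a Spearman rho of 0.62, and Jun and Junb had an r of 0.71 and a rho of 0.45. With the group means removed these r values were 0.61 and 0.60. Fosl2 stood apart from Fos, with an r of -0.01. Jund correlated with Fos at 0.38 over all libraries and at 0.70 once group means were removed. These correlations over 15 libraries are descriptions. Total count is shared by all genes of a library, and log2 CPM had an r with it of 0.48 for Fos and 0.56 for Jun.

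**Figure D4:**
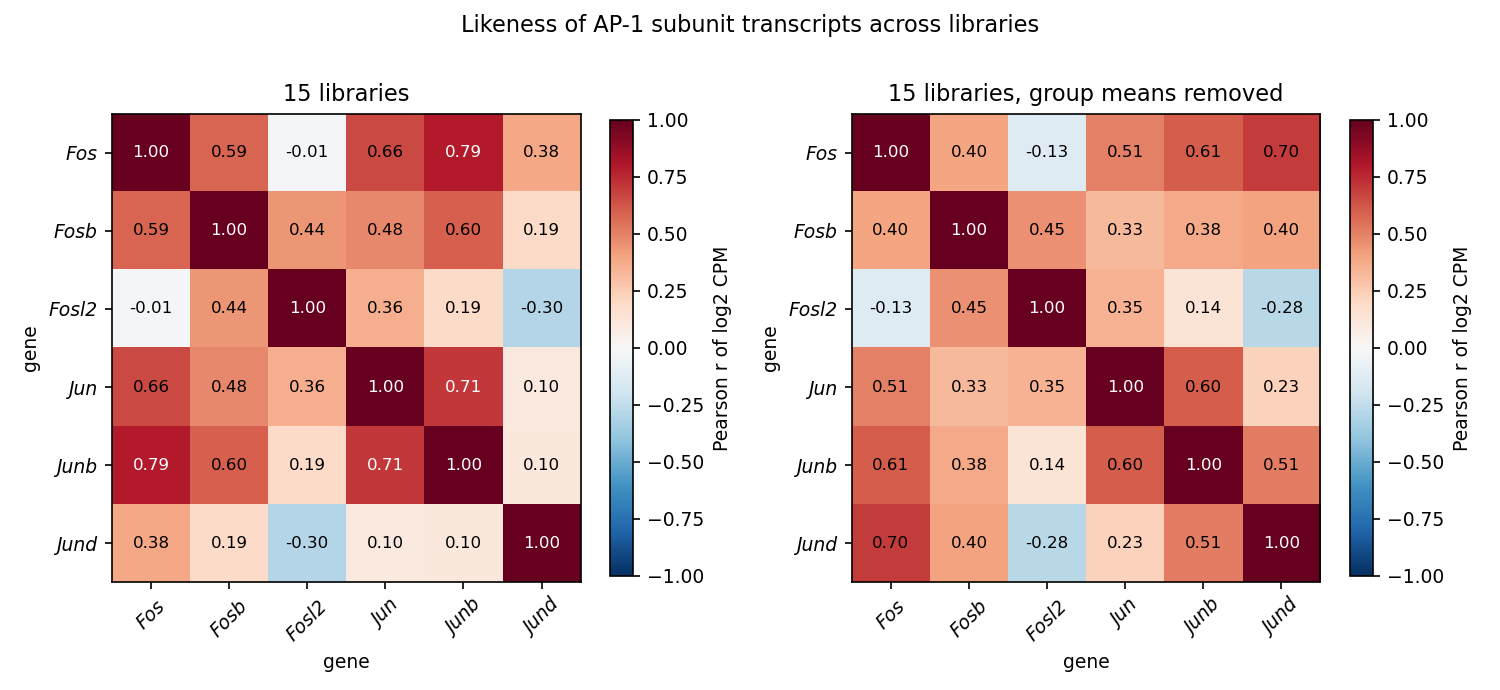
Pearson r of log2 CPM between each pair of AP-1 genes (rows and columns) over 15 libraries, on the left as measured and on the right with group means removed, on a colour scale from -1 to 1. On the left, Fos, Jun and Junb form the block of highest values (0.66 to 0.79), on the right Fos and Jund have the highest value (0.70), and Fosl2 and Jund have a negative r in both panels.

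Among 14085 genes with a mean of at least 1 CPM, those most like Junb by Pearson r over the 15 libraries were Egr2 (0.91), Per1 (0.87), Klf4 (0.85) and Coq10b (0.83), and Fos ranked 6th. These r values include the differences between groups. With group means removed they were 0.74 for Egr2, 0.73 for Per1, 0.77 for Klf4 and 0.56 for Coq10b. Egr2 and Klf4 encode zinc finger transcription factors of the immediate early class. The genes most like Fos were Sik1 (0.89), a salt-inducible kinase, Eno3 (0.86), Emg1 (0.85) and Trib1 (0.85), and Junb ranked 11th. Fosb was most like Lrrc3b (0.89), Mtrf1l (0.82), Slc25a32 (0.81) and B630019K06Rik (0.80), and Egr4 ranked 6th. Jun was most like Mex3c (0.85), Golph3l (0.81), Arf6 (0.80) and Gpc3 (0.77). Fosl2 was most like AABR07062570.1 (0.92), Cdc27 (0.90), Zbtb43 (0.89) and Rbm27 (0.89), and Jund like Fmc1 (0.93), Dkc1 (0.87), Phf1 (0.87) and Ass1 (0.86).

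JNK kinases phosphorylate Jun, and ERK kinases carry growth signals to the Fos promoter. Of 14 JNK branch genes tested, 3 were above 0 in scrambled trained over naive libraries, where 47.2% of all genes were, median log2 fold change -0.15, and 1 was lower at an unadjusted edgeR p under 0.05, as 3.35% of all genes were. That gene was Mapk9, which encodes JNK2, at 161 ± 15.7 CPM in scrambled trained and 188 ± 11.3 CPM in naive libraries (SD, n = 5 each), a log2 fold change of -0.23. Map3k5, the stress kinase ASK1, followed at -0.19. Between the trained groups 12 of the 14 were above 0, where 50.7% of all genes were, with a median of 0.17. At that p 0 of the 14 were called, where 5.61% of all genes were. Map2k7, a kinase that phosphorylates JNK, had the smallest p with a log2 fold change of 0.17. Of 12 ERK branch genes tested, 8 were above 0 in scrambled trained over naive libraries, with a median of 0.04, and Mapk3, which encodes ERK1, had 199 ± 22.9 CPM in scrambled trained and 179 ± 10.8 CPM in naive libraries, a log2 fold change of 0.15. In Rnf20 siRNA over scrambled siRNA trained libraries, 6 of the 12 were above 0 with a median of 0.01 and 0 were called at that p, and Rps6ka1, a kinase activated by ERK, had the smallest p with a log2 fold change of -0.24.

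Serum response factor and its partners of the TCF and MRTF kind bind the CArG element through which growth signals reach Fos. Of 5 such genes tested, 4 were above 0 with a median of 0.06 in scrambled trained over naive libraries, and 0 were called at an unadjusted p under 0.05. Of all genes in that comparison, 47.2% were above 0 and 9.97% reached that p. Srf had 70.4 ± 7.39 CPM in scrambled trained and 67.4 ± 4.41 CPM in naive libraries, and the log2 fold change of Mrtfa was 0.10. Elk1 had a log2 fold change of 0.17 in trained libraries labelled Rnf20 siRNA over scrambled trained ones (edgeR unadjusted p = 0.0512). Of 11 CREB and MEF2 genes, 6 were above 0 in scrambled trained over naive libraries, with a median of 0.02 and 0 called, Crem having 0.21 and Atf1 0.17. Between the trained groups 10 of these 11 were above 0, where 50.7% of all genes were, with a median of 0.14. Crtc3, a CREB coactivator, had the smallest p there, with 0.29.

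Other basic leucine zipper proteins pair with Jun or Fos or compete for the same sites. Of 12 tested, 9 were above 0 in scrambled trained over naive libraries with a median of 0.11, and Atf3 and Maff were higher at an unadjusted p under 0.05, where 47.2% and 6.62% of all genes were. Atf3, which is induced by injury and stress, had 9.04 ± 7.95 CPM in scrambled trained and 1.89 ± 0.76 CPM in naive libraries (SD, n = 5 each), a log2 fold change of 2.25. Maff, a small Maf protein without an activation domain, had a log2 fold change of 1.62. Fosl1 had 6.32 ± 0.81 CPM in trained libraries labelled Rnf20 siRNA, 5.82 ± 0.67 CPM in the scrambled trained group and 5.40 ± 0.46 CPM in the naive group. Between the trained groups 5 of the 12 were above 0, where 50.7% of all genes were, with a median of -0.07. Atf7 had the smallest p there, with a log2 fold change of 0.25.

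Proteins that bind AU-rich elements shorten or lengthen the life of Fos and Junb mRNA. Of 6 tested, 5 were above 0 in scrambled trained over naive libraries with a median of 0.08, and 0 were called at an unadjusted p under 0.05. Over all genes these shares were 47.2% and 9.97%. Zfp36, which encodes the decay factor tristetraprolin, had 12.4 ± 6.16 CPM in scrambled trained and 8.05 ± 2.08 CPM in naive libraries, a log2 fold change of 0.62. Between the trained groups, Hnrnpd, which encodes the decay factor AUF1, was lower at that p, with 83.5 ± 2.97 CPM in libraries labelled Rnf20 siRNA and 92.4 ± 1.63 CPM in scrambled trained libraries (SD, n = 5 each). The values of Hnrnpd did not overlap, as was found for 0.262% of genes in that direction and 0.397% in the other. Tia1, an RNA-binding protein of stress granules, was higher at that p, with a log2 fold change of 0.29. Between these groups 2.63% of all genes were higher and 2.98% lower at that p. Of 7 genes for ligases that mark Jun and Fos proteins for degradation, 0 were called in either comparison, where 9.97% and 5.61% of all genes were. Fbxw7 and Det1 had log2 fold changes of -0.22 and 0.25 in scrambled trained over naive libraries.

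Textbook targets of AP-1 showed a wider spread than the AP-1 genes themselves. Of 21 tested, 19 were above 0 in scrambled trained over naive libraries (median log2 fold change 0.72), and 11 were higher and 0 lower at an unadjusted edgeR p under 0.05. Over all genes 47.2% were above 0, with 6.62% higher and 3.35% lower at that p. Timp1, an inhibitor of matrix metalloproteinases, had 37.3 ± 20.6 CPM in scrambled trained and 6.21 ± 1.70 CPM in naive libraries (SD, n = 5 each), without overlap, a log2 fold change of 2.58. Plau, which encodes urokinase, had 8.82 ± 8.00 CPM in scrambled trained and 2.19 ± 0.66 CPM in naive libraries. Between the trained groups 4 of the 21 were above 0 with a median of -0.46, where 50.7% of all genes were, and Plau was lower at that p, as 2.98% of all genes were, with 3.49 ± 3.02 CPM in libraries labelled Rnf20 siRNA, a log2 fold change of -1.33. For the Rnf20 siRNA label over naive libraries the median was 0.24.

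Markers of several other cell types moved with these targets. Timp1, Spp1, Vim and Cd44 of the target list are also on the reactive glia list. Of its 16 genes, 15 were tested and none was at 0 in any group; 14 were above 0 in scrambled trained over naive libraries, with a median log2 fold change of 0.94. The summed level of reactive glia genes was 2645 to 8338 CPM in trained libraries labelled Rnf20 siRNA, 4642 to 9469 CPM in the scrambled trained group and 3416 to 5284 CPM in the naive group. The 5 red cell genes tested all had an unadjusted p under 0.05 toward scrambled trained libraries, as 6.62% of all genes had. The red cell genes summed to 225 to 1828 CPM in scrambled trained libraries and to 156 to 264 CPM in naive libraries. All 8 choroid plexus genes tested were below 0 in scrambled trained over naive libraries, with a median of -0.84 and 0 at an unadjusted p under 0.05. Their summed level was 82.2 to 1847 CPM under the Rnf20 siRNA label, 10.1 to 4274 CPM in the scrambled trained group and 1415 to 4402 CPM in the naive group. The lowest values were in scrambled trained libraries 5 and 16 and in library 20 labelled Rnf20 siRNA, at 10.1, 46.6 and 82.2 CPM. Of 7 leukocyte genes tested, 7 were above 0 in scrambled trained over naive libraries with a median of 1.60. At an unadjusted p under 0.05, 5 of these leukocyte genes were higher, where 6.62% of all genes were. The summed level of leukocyte genes was 53.4 to 361 CPM under the Rnf20 siRNA label, 144 to 560 CPM in the scrambled trained group and 81.6 to 138 CPM in the naive group. All 9 oligodendrocyte genes were below 0 with a median of -0.25, 2 of them at that p, and all 8 pan-neuronal genes with a median of -0.18 and 0 at that p. Of 6 endothelial and mural genes, 5 were below 0, 3 of them at that p. Over all genes 3.35% were lower at that p. Scrambled trained library 10 had the highest summed level of striatal markers, 738 CPM against at most 429 CPM in any other library, and the lowest of CA1 pyramidal markers, 269 CPM. Between the trained groups, 0 of the 15 reactive glia genes were above 0, with a median of -0.60, where 50.7% of all genes were. At an unadjusted edgeR p under 0.05, 5 of these 15 were lower, as 2.98% of all genes were. Above 0 there were also 1 of 10 microglia genes, 0 of 7 leukocyte genes and all 8 pan-neuronal genes. The part of these markers in the target values and in the AP-1 values was not tested in either comparison. For Junb itself, the log2 fold change in scrambled trained over naive libraries was 0.72 with the reactive glia score as a covariate and 0.63 with the choroid plexus score as a covariate. Fosb, 0.47 without covariates, was 0.30 with the choroid plexus score and 0.86 with the microglia score. Fosl2, 0.21 without covariates, was 0.45 with the reactive glia score.

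Immediate early genes outside the family, which are induced by the same signals, were read in the same way. Of 20 tested, 15 were above 0 in scrambled trained over naive libraries with a median of 0.28, against 47.2% of all genes. At an unadjusted p under 0.05, 4 were higher, Egr2, Klf4, Klf2 and Nr4a1, where 6.62% of all genes were higher. Egr2 had 6.42 ± 1.26 CPM in scrambled trained and 1.88 ± 1.23 CPM in naive libraries (SD, n = 5 each), without overlap, a log2 fold change of 1.76, and Klf4 had one of 0.69. For the Rnf20 siRNA label over naive libraries 19 of the 20 were above 0 with a median of 0.19, against 50.6% of all genes, and Egr2 and Klf4 were higher at that p, as 1.21% of all genes were. The gene below 0 was Npas4, with a log2 fold change of -0.58 (edgeR unadjusted p = 0.143). Between the trained groups 7 of the 20 were above 0 with a median of -0.09, against 50.7% of all genes. At that p 0 were called, against 5.61% of all genes, and Klf6 had the smallest p with a log2 fold change of -0.24.

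**Figure D5:**
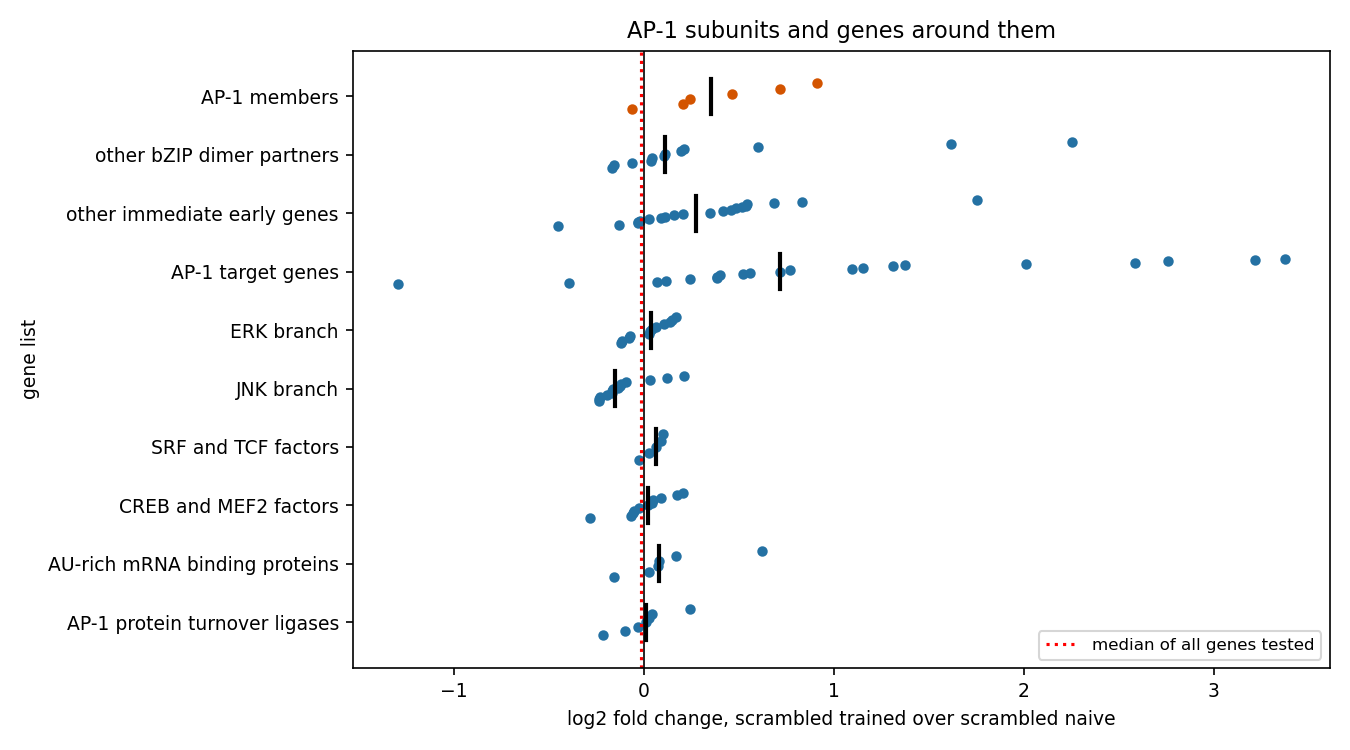
Log2 fold change in scrambled siRNA trained over naive libraries (x axis) of each tested gene (points) of the AP-1 family and of 9 lists of related genes (rows), with the list median as a black bar and the median of all 14880 genes tested as a dotted line. The AP-1 genes have a median of 0.36, the target genes reach farthest to the right with a median of 0.72, and the medians of the kinase and upstream factor lists run from -0.15 to 0.06.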

How the data were processed

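The mRNA of 15 dorsal CA1 libraries was sequenced with a stranded mRNA kit with 14 PCR cycles, per the labels' protocols. The authors deposited counts per gene and a table of the same counts divided by size factors, a signal with no unit. The deposited signal equalled counts over 1 factor per library for all genes (0 genes differed at a relative tolerance of 1e-06) and was used only for that check. The submitters' processing notes name Trim Galore, FastQC, featureCounts 2.0.1, DESeq2 and build Rnor_6.0. Aligner, gene annotation and strand setting were not given in the sources used here, and reads of overlapping antisense genes may not be separated. The lowest chi-square per gene between 2 libraries of a group was 9.38, so all libraries were treated as separate.

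Counts were fitted in R 4.3.3 with edgeR 4.0.16 on all 15 libraries and 3 groups (trimmed-mean scaling, filterByExpr, robust quasi-likelihood F test, 12 residual degrees of freedom), without covariates. P-values were adjusted by Benjamini-Hochberg over the 14880 genes tested, which held 99.93% of counts, and the threshold was 0.05. CPM values use the scaled library size, and log2 CPM for correlations adds a prior count of 2. Exact permutation tests enumerated all arrangements of libraries, are two-sided and are not adjusted. Precision follows the depth: the AP-1 genes had 34 to 2256 counts per library. Alternatives were DESeq2 1.42.0, limma-voom 3.58.1, other scalings and filters, each library left out, outlying libraries left out, and marker scores, 1 surrogate variable (sva 3.50.0) or depth as covariates, the choroid plexus score and depth being chosen after seeing the data. The script was tested on simulated data.

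Named genes were all 6 members, Rnf20, the 2 genes of smallest p in scrambled trained over naive libraries and the 1 of smallest p between the trained groups from each of 9 pathway lists, and the 4 genes most correlated with each member. A result that this rule would name in the ERK list is not reported here. Genes named outside this rule (Ddit4 and the other non-overlapping genes, the genes of smallest p in a comparison, and further list genes at an unadjusted p under 0.05) were chosen after their values were seen. Npas4, also outside the rule, was named as the gene below 0 in its list for the Rnf20 siRNA label over naive libraries. The members and lists were chosen with earlier results of these data known. Replicate numbers are not shared between groups, so libraries were not paired.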

Additional observations from a re-analysis of the deposited data

Results flagged for a closer look

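A single library stood away from the others of its group in 2 of the 18 combinations of AP-1 gene and group examined, by Dixon's test at 5 libraries. Chance gives such a library in about 1 in 20 groups. Jund in library 14 labelled Rnf20 siRNA and trained was 53.9 CPM, while the other 4 libraries of that group ran from 66.4 to 70.6 CPM. Fosb in scrambled trained library 5 was 6.13 CPM, while the other 4 ran from 4.37 to 4.77 CPM.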

How the results depend on the processing

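Of the log2 fold changes of the 6 AP-1 genes in 4 comparisons, 354 of those recomputed with a library left out kept direction and side of the threshold and 6 reversed; under the other alternatives 317 did so, 11 reversed and 2 passed the threshold. Both that passed were Junb by DESeq2, 1 AP-1 gene in scrambled trained over naive libraries (0.71) and 1 in both trained groups over naive (0.61). All reversals lay between the trained groups, where no value was called. Without the 4 libraries farthest out on the first principal component, Fos became 0.0051, Jun 0.0085 and Jund 0.0019. With the 3 libraries lowest in choroid plexus score left out, Jund became 0.065. Fosb became -0.14 with the reactive glia score, -0.25 with the microglia score and -0.065 with 1 surrogate variable. Jund became 0.0074 with the choroid plexus score. With log2 total count, Fos became 0.13, Jun 0.056 and Jund 0.055. Leaving out 1 library gave -0.27 to 0.060 for Fosl2, -0.14 to 0.012 for Jun and -0.052 to 0.044 for Jund.

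Genes past the threshold, 0 by edgeR, numbered 58 by DESeq2, 1 with 1 surrogate variable and 107 with the choroid plexus score in scrambled trained over naive libraries. DESeq2 called 1 gene between the trained groups, 1 for the Rnf20 siRNA label over naive and 9 for both trained groups over naive, where the microglia score gave 1. In these last 2 comparisons leaving out 1 library gave 0 to 1, the 1 being without naive library 9. The cause was not tested. The Fosb difference in scrambled trained over naive libraries ran from 0.30 to 0.86. No paired analysis was possible because the groups share no replicate numbers. With 34 to 508 counts per library, Fos, Fosb and Fosl2 have wider counting error than Jun, Junb and Jund.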
